A study of Mus musculus with 3 samples.

Results

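White fat genes were followed in spatial transcriptomes of mouse thymus, with the question of whether their higher level in *Trp53*-/- thymus lay next to fat or also far from it. The set holds 10 of the 54838 listed genes. It was named from earlier results of these data, for levels above WT in KO thymus, so the values of these genes are a description with no test. The sections came from 2 *Trp53*-/- (KO) mice and 1 *Trp53*+/+ (WT) mouse, all female C57BL/6 animals whose vessels were flushed with cold PBS before dissection. The label KO1134 gives an age of 17 weeks, the label KO1308 21 weeks, and the label WT1101 17 weeks. The knockout is carried in the germline, so fat and thymus share it, and no section comes from a tissue-restricted knockout. The study describes a KO section named KO1308 with a depth near that of the counts labelled KO1134, so the KO sections are called here by the labels of their counts. Tissue of the KO and the WT was permeabilised for different times, which cannot be told apart from genotype.

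White adipocytes store triglyceride in 1 large lipid droplet and secrete hormones known as adipokines. Brown adipocytes burn fatty acids for heat through the mitochondrial uncoupler *Ucp1*, and share many lipid genes with white ones. The thymus lies in mediastinal fat and is replaced in part by fat as it shrinks with age. A spatial bin at a lobe margin can therefore hold thymocytes and adipocytes side by side. The set covers the adipokines *Adipoq* (adiponectin), *Retn* (resistin), *Lep* (leptin) and *Cfd* (adipsin, complement factor D), the lipid droplet proteins *Plin1* (perilipin, which gates lipolysis) and *Cidec* (which fuses droplets), and the lipid-handling genes *Scd1* (which desaturates fatty acids) and *Fabp4* (which carries them). *Car3* (a cytosolic carbonic anhydrase) and *Cyp2e1* (a cytochrome P450 that oxidises ethanol and other small molecules) complete it. *Fabp4* is also a gene of capillary endothelium and macrophages, and *Cyp2e1* is better known from liver.

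Because these genes lay together on the sections, their promoters were compared. RefSeq windows of GRCm38.p6, from 250 bases before to 50 after a start site, were found for 7 of the 10 genes, in 8 windows. Those of the 2 adipokines *Adipoq* and *Cfd*, of *Plin1* and of *Cyp2e1* are shown, 5′ to 3′ on the gene's strand, as an example of each role. The letters searched on both strands were CCAAT (a box bound by NF-Y), the TATA box in the form TATAAA, and TTNNGCAA (a form of the C/EBP site). Capitals mark a match, shown as it reads on the gene's strand. The 3 motifs did not overlap each other in the windows shown.
*Adipoq*, chr16:23146286-23146585 (+): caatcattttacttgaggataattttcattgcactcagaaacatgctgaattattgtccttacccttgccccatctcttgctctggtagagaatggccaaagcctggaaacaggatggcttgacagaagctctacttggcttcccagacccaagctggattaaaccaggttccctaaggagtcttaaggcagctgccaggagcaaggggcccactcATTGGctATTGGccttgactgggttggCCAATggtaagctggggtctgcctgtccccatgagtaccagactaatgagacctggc
*Cfd*, chr10:79890603-79890902 (+): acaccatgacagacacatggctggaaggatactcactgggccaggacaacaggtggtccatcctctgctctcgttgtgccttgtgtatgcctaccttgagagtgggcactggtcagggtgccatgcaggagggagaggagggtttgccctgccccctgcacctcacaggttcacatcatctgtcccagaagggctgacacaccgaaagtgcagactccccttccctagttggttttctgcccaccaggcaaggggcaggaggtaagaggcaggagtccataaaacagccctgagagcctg
*Plin1*, chr7:79732727-79733026 (−): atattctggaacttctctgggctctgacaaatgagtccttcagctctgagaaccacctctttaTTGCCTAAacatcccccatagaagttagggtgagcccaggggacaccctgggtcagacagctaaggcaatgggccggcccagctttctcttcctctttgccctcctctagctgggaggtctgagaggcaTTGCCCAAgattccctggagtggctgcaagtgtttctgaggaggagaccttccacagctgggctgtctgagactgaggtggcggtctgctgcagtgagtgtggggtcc
*Cyp2e1*, chr7:140763569-140763868 (+): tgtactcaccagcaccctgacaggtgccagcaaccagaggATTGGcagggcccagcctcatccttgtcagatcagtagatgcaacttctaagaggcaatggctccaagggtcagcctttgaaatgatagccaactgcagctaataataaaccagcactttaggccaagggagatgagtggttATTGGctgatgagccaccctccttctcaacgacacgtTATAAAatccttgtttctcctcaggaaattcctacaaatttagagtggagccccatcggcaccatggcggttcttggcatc
The *Adipoq* window held CCAAT at 3 places, starting at −34, −27 and −7 from the start site. The *Cyp2e1* window held CCAAT at −210 and −68, and its TATA box began at −31. TTNNGCAA started at −187 and −58 in *Plin1*, at −55 in *Lep* and at −198 in 1 of the 2 windows of *Cidec*, so 3 of the 7 genes had it. Of 32544 promoter windows of this length in the table, 10.8% held TTNNGCAA, 37.4% held CCAAT and 13.6% held the TATA box. None of the 3 motifs was shared by all 7 genes, and the *Cfd* window held none of these letters.

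The sections held 31237062 (KO1134), 21089885 (KO1308) and 41581477 (WT) unique molecular identifiers (UMIs, 1 per captured transcript). Spots were summed in 27 µm square bins, and 12009, 16140 and 27104 bins lay over tissue. Thymus bins, defined by 6 thymus genes and not being fat bins, numbered 9245, 13208 and 24682, with a median of 2758, 844.5 and 1430 UMIs. Level is given as UMIs scaled to 1000000 per area (CPM). *Trp53*, the deleted gene, had 16.4 CPM (14.9 to 18.1) in these bins of KO1134 and 24.9 CPM (22.3 to 27.7) in those of KO1308. WT had 80.1 CPM (77.3 to 83.0), so the KO sections lay below it and not at 0. Counts are summed per gene, so the part of *Trp53* that the remaining UMIs come from cannot be seen. The 6 thymus genes summed to 750, 1727 and 2167 CPM. Pairs of sections shared 5572 to 13670 spot barcode sequences. With 1 WT section no test between genotypes was made. Ranges in brackets are exact 95% intervals and cover counting error only.

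A fat bin was a tissue bin with at least 1% of its UMIs on *Adipoq*, *Cfd*, *Car3* and *Retn*. The section labelled KO1134 held 571 fat bins, which is 4.75% of its tissue bins (4.38 to 5.15). The section labelled KO1308 held 423 (2.62%, 2.38 to 2.88) and WT 7 (0.0258%, 0.0104 to 0.0532). Fat was thus plentiful on both KO sections and nearly absent from the WT one. How much perithymic fat was left on an organ when it was dissected and genotype cannot be told apart here. Touching fat bins formed 32, 42 and 4 patches, the largest of 280, 110 and 3 bins. Of the fat bins, 238, 185 and all 7 lay inside the thymus area, the others outside it. In KO1308 136 fat bins lay over 400 µm away from the thymus area. The median fat bin carried 15, 16 and 10 UMIs of the 4 genes and none fewer than 4. Just inside the limit bins had 1.006%, 1.004% and 1.084%, and just outside it 0.995%, 0.998% and 0.876%. On the map of bins by class the patches lie along the left and upper margin of the section labelled KO1134, and at several margins of that labelled KO1308. The upper edge of the capture area cuts through the tissue in the latter and in WT, so fat beyond that edge was not seen.

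**Figure D1:**
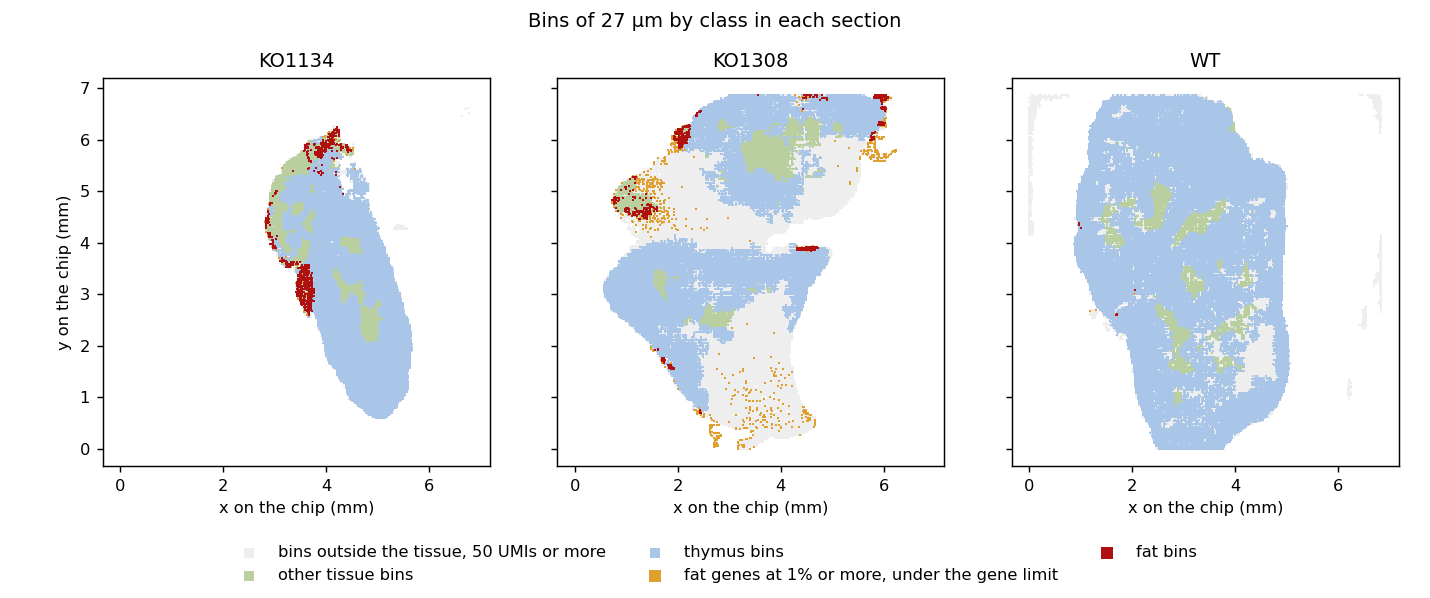
Maps of the 3 sections with x and y in mm on the chip, each square a 27 µm bin coloured by class. Red marks the fat bins, 571 in KO1134, 423 in KO1308 and 7 in WT, which lie inside or outside the area of the thymus bins (blue). Orange marks bins under the limit of 300 genes with at least 1% of UMIs on the fat genes, which number 697 in KO1308.

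The levels of the 4 genes in fat bins are set in part by that definition and serve as the scale for the rest. *Adipoq* (chr16:23146536-23158028 of GRCm38, + strand) had 1235, 1155 and 1180 CPM in fat bins of KO1134, KO1308 and WT. *Cfd* (chr10:79890853-79892655, + strand), the highest of the 4, had 9360, 12163 and 12096 CPM. *Retn* (chr8:3655770-3660110, + strand) had 1570, 1475 and 2360 CPM. Of the 423 fat bins of KO1308, 155 had the brown fat gene *Ucp1* around them (7 of 571 in KO1134, 0 of 7 in WT), so the fat level of KO1308 pools unlike bins. *Retn* was at 675 CPM (571 to 793) in the 155 and at 2264 CPM (2070 to 2471) in the other 268, and *Cfd* at 8737 and 15545 CPM. *Car3* (chr3:14863512-14872523, + strand) had 4713, 4313 and 1180 CPM, the last from 8 UMIs. The other 6 genes did not enter the definition. *Scd1* (chr19:44394455-44407879, − strand) was at 11692 and 13316 CPM in fat bins of the KO sections and at 1770 CPM in the 7 of WT. *Fabp4* (chr3:10204088-10208576, − strand) was at 10007, 13198 and 3540 CPM. These lipid-handling genes therefore matched the highest adipokine in KO fat and were lower, beside *Cfd*, in the few WT fat bins. Their WT levels rest on 12 and 24 UMIs. The WT fat bins also had 1770 CPM of the 6 thymus genes, against 257 and 510 CPM in KO fat bins, so they are not like bins. The droplet genes *Plin1* (chr7:79720218-79732903, − strand), at 388, 467 and 590 CPM, and *Cidec* (chr6:113424634-113435760, − strand), at 610, 614 and 443 CPM, were of the same order in the 3 sections. *Cyp2e1* (chr7:140763739-140774987, + strand) had 712, 274 and 295 CPM. In WT fat bins *Plin1*, *Cidec* and *Cyp2e1* rest on 4, 3 and 2 UMIs, so their levels there are loose (*Plin1* 161 to 1511 CPM). *Lep* (chr6:29060220-29073877, + strand), the adipokine that signals fat stores, had 75.2 and 43.0 CPM in KO fat bins and 0 UMIs in WT, where 7 bins are too few to detect it. Together the 10 genes took 40362, 47017 and 23455 CPM of fat bins, which is several percent of all transcripts there. Counts in this 3′ capture are not scaled by gene length, so levels are compared between sections and not between genes as molecules per cell.

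In thymus bins that are not fat bins each of the 9 genes with at least 100 UMIs had at least 2 times its WT level in either KO section, against 15.2% of the 16808 genes tested in KO1134 and 19.4% in KO1308. Since the genes were chosen for this difference, nothing is read from that contrast. *Adipoq* was at 6.35 CPM (159 UMIs), 9.62 CPM (132) and 0.495 CPM (19) in KO1134, KO1308 and WT, which makes the KO sections 12.8-fold (7.95 to 21.9) and 19.4-fold (12.0 to 33.3) the WT level. *Retn* was at 10.1, 14.1 and 0.469 CPM, 21.6-fold (13.4 to 37.0) and 30.1-fold (18.6 to 51.9). *Cfd* was at 56.6, 116 and 3.60 CPM, 15.7-fold (13.2 to 18.9) and 32.4-fold (27.2 to 38.8). The ratio of each of these 3 adipokines was the larger in KO1308. *Lep* had 10, 1 and 1 UMIs and no ratio is given.

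Beside the adipokines, *Car3* was at 31.3, 35.5 and 1.17 CPM, 26.7-fold (19.7 to 36.8) and 30.3-fold (22.3 to 42.0) the WT level. *Scd1* was at 128, 189 and 6.54 CPM, 19.5-fold (17.2 to 22.3) and 28.9-fold (25.4 to 33.1). Of the droplet genes, *Plin1* was 5.52-fold (3.33 to 9.57) and 10.1-fold (6.06 to 17.4) and *Cidec* 13.3-fold (7.49 to 25.8) and 18.7-fold (10.4 to 36.5) the WT level. *Cyp2e1* had another order of the KO sections, with 6.59, 2.33 and 0.547 CPM, 12.0-fold (7.63 to 20.0) in KO1134 and 4.26-fold (2.38 to 7.77) in KO1308. Its level in KO fat bins had the same order. *Fabp4* stood apart with the smallest ratios of the 9, at 197, 222 and 89.9 CPM, 2.20-fold (2.10 to 2.29) and 2.47-fold (2.36 to 2.60), and with a level in WT thymus above that of the other 9 genes together. In thymic T bins alone, those with a *Cd3* gene above the limit used in the study, *Adipoq* was 9.44-fold (5.18 to 18.0) and 16.1-fold (9.18 to 29.8) the WT level, and *Fabp4* 2.25-fold and 2.54-fold. A bin called T by this rule can hold adipocyte transcripts, and *Cyp2e1* in KO1308 was the exception with 1.46-fold (0.41 to 4.28).

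**Figure D2:**
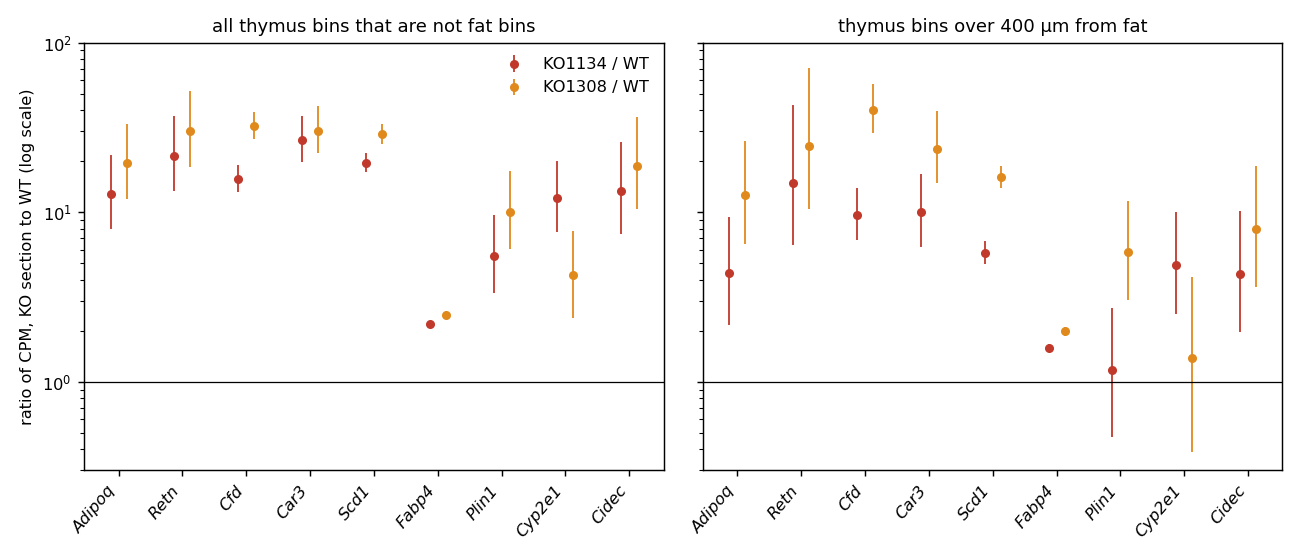
Ratio of CPM, KO section to WT (log scale), for 9 genes in all thymus bins that are not fat bins (left) and in those over 400 µm from fat (right). Points are ratios, bars exact 95% intervals for counting error, and the line marks 1. All 18 ratios on the left exceed 1, *Fabp4* has the smallest there at 2.20 and 2.47, and on the right the intervals of *Plin1* in KO1134 and *Cyp2e1* in KO1308 cross 1.

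Distance was taken from the centre of each thymus bin to that of the nearest fat bin. The median thymus bin lay 783 µm from fat in KO1134, 774 µm in KO1308 and 2037 µm in WT. Within 100 µm of fat lay 6.65%, 4.78% and 0.535% of thymus bins. Apart from *Lep*, with too few UMIs, each gene was higher within 50 µm of fat than beyond 400 µm in all 3 sections. *Cfd* went from 2588 CPM within 50 µm to 773 CPM at 50 to 100 µm, 82.9 CPM at 100 to 200 µm, 23.3 CPM at 200 to 400 µm, 19.2 CPM at 400 to 800 µm and 6.84 CPM beyond 800 µm in KO1134. In KO1308 the same zones had 2518, 718, 204, 106, 59.6 and 38.6 CPM, and in WT 1450, 178, 23.4, 1.92, 3.06 and 0.879 CPM. The first 100 µm were alike in the KO sections, and beyond that KO1308 stayed higher. *Adipoq* went from 318 CPM within 50 µm to 0.70 CPM beyond 800 µm in KO1134, and from 231 to 3.32 CPM in KO1308. In WT it had 137 CPM (5 UMIs) near fat and 0.377 CPM (12 UMIs) beyond 800 µm. *Scd1* had 5605, 4209 and 493 CPM within 50 µm, and 22.5, 88.7 and 5.93 CPM beyond 800 µm. In rings of 50 µm, genes passed below 10% of their fat-bin level in the ring starting at 50 or 100 µm in the KO sections and below 1% in rings starting at 100 to 300 µm, leaving out *Lep*, whose counts are too few. *Fabp4* did not pass below 1%.

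**Figure D3:**
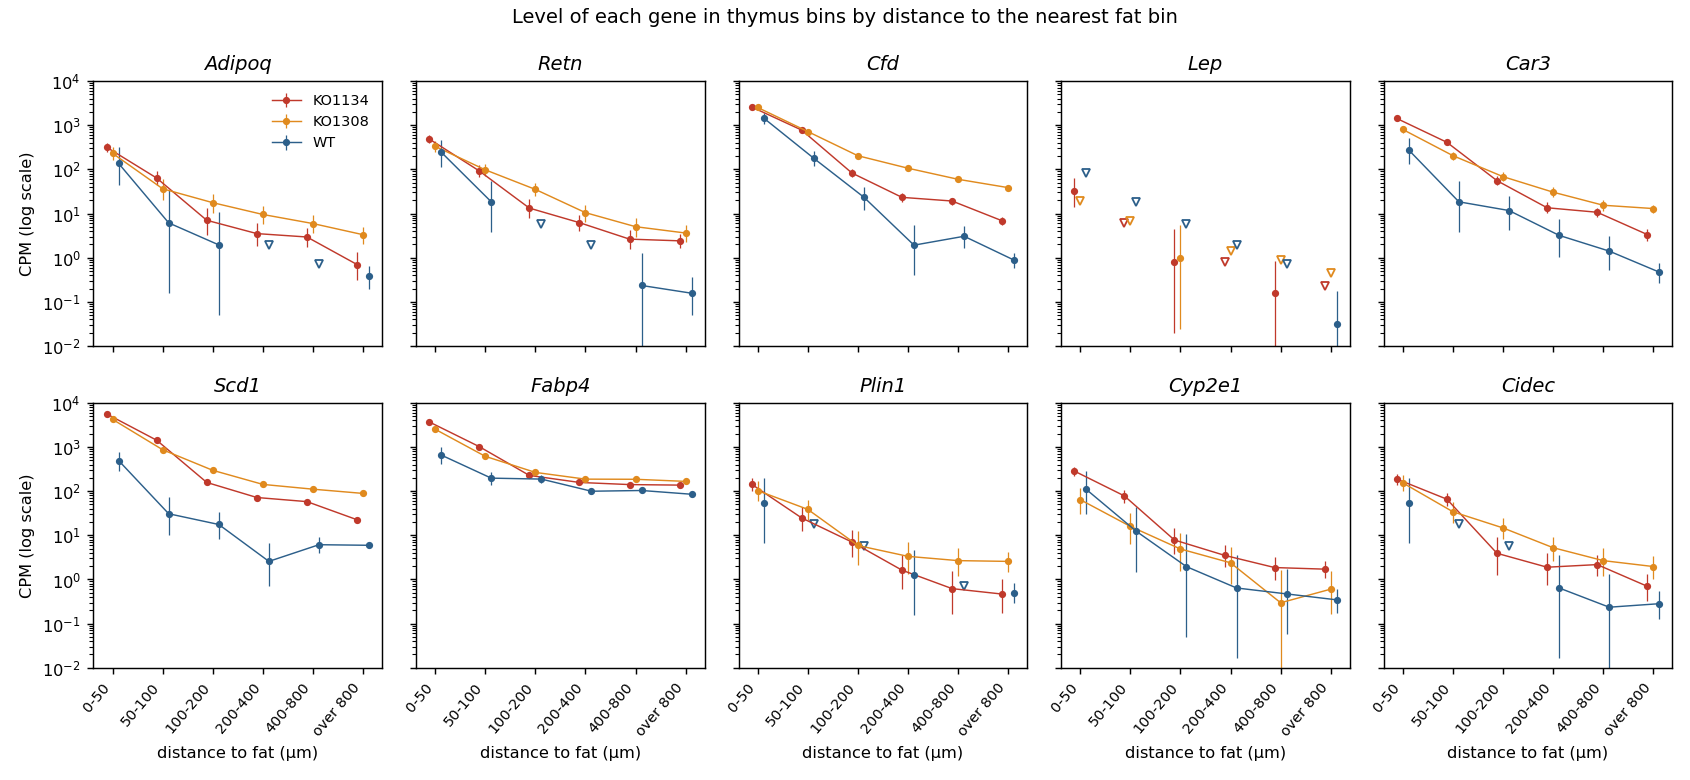
CPM (log scale) of each gene in thymus bins that are not fat bins by zone of distance to the nearest fat bin (µm), for the 3 sections. Points are zone levels with exact 95% Poisson bars, and open triangles mark zones with 0 UMIs at the level of 3 UMIs. *Cfd* falls from 2588, 2518 and 1450 CPM within 50 µm to 6.84, 38.6 and 0.879 CPM beyond 800 µm, while *Fabp4* levels off at 137, 166 and 84.9 CPM.

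The fall can be put as 1 ratio, the level within 50 µm over that beyond 400 µm. For the summed 8 genes other than *Fabp4* and *Scd1* it was 226 (203 to 251) in KO1134, 57.5 (51.7 to 64.0) in KO1308 and 700 (524 to 932) in WT. *Scd1* had 163, 43.8 and 82.7, and *Fabp4* 26.8, 14.6 and 7.55. In KO1134 all 7 genes of the set with at least 100 UMIs across these zones were at least 2-fold higher near fat, against 5.75% of all genes tested, and in KO1308 all 4, against 4.76%. Distance from bins rich in 4 of these genes was itself part of how the set was framed, so the counts are descriptive. The same 4 genes, *Cfd*, *Car3*, *Retn* and *Adipoq*, hold most UMIs of the 8. The definition of fat therefore sets the ratios and shares of that sum in part. The median ratio, near over far, of all genes was 0.799 and 0.898. Of the UMIs of the 8 genes in thymus bins, 69.9% (68.2 to 71.5) lay within 100 µm of fat in KO1134, 44.6% (42.7 to 46.5) in KO1308 and 44.7% (38.8 to 50.8) in WT, where 2.93%, 4.34% and 0.519% of all UMIs lay. For *Scd1* the shares were 64.7%, 39.9% and 9.16%, and for *Fabp4* 28.4%, 21.7% and 1.62%. Thus most UMIs of the 8 genes in KO1134 thymus lay within 100 µm of fat, whereas in KO1308 the larger part lay farther out. In WT the interval allows either. The contrast depends on the cut. Within 200 µm lay 77.6% (76.0 to 79.1), 58.4% (56.5 to 60.3) and 52.0% (45.9 to 58.0), beside 8.04%, 11.8% and 1.86% of all UMIs.

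Beyond 400 µm the KO sections were still above WT for most of the set. There lay 6827, 9799 and 23203 thymus bins, where the 8 genes summed to 24.2 CPM (468 UMIs), 73.1 CPM (731) and 3.32 CPM (120). The KO levels were 7.29-fold (5.95 to 8.99) and 22.0-fold (18.1 to 26.9) that of WT. Of the 4 genes with at least 100 UMIs there, *Cfd*, *Car3* and *Scd1* had at least 2 times the WT level in KO1134, against 15.3% of 16345 genes, and also in KO1308, against 20.1%. Of all genes 10.4% did so in both sections, and *Fabp4* in neither. *Cfd* was 9.67-fold (6.89 to 13.9) and 40.2-fold (29.2 to 56.8), *Car3* 9.97-fold (6.22 to 16.7) and 23.7-fold (14.9 to 39.5), and *Scd1* 5.76-fold (4.93 to 6.75) and 16.1-fold (13.9 to 18.8) the WT level. *Adipoq* was at 1.45, 4.20 and 0.332 CPM, from 28, 42 and 12 UMIs, which is 4.36-fold (2.15 to 9.42) and 12.6-fold (6.53 to 26.4). *Retn* had 48, 41 and 6 UMIs, 15.0-fold (6.39 to 42.8) and 24.7-fold (10.4 to 71.1). For *Plin1* in KO1134, at 1.17-fold (0.474 to 2.74), and *Cyp2e1* in KO1308, at 1.39-fold (0.387 to 4.15), no difference from WT was detectable at this depth, and each fell below 1 under at least 1 other definition of fat. *Fabp4* was at 138, 173 and 87.0 CPM, 1.59-fold (1.51 to 1.67) and 1.98-fold (1.87 to 2.10), beside a median over all genes of 1.03 and 1.12.

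Beyond 800 µm the 8 genes were at 16.2, 63.6 and 3.05 CPM, 5.31-fold (4.15 to 6.83) and 20.9-fold (16.7 to 26.3) the WT level. In KO1308 this value depends on what counts as fat. When bins under the limit of 300 genes could also be fat, 1120 bins in place of 423 served as sources, and the level beyond 800 µm was 39.0 CPM, 12.7-fold that of WT. *Cfd* was then at 23.5 in place of 38.6 CPM, and *Adipoq* at 1.72 in place of 3.32 CPM. In KO1134 the same change left the 8 genes at 16.2 CPM. Distances in the plane of the section do not measure fat above or below it.

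Zones at matched distance set the KO sections beside WT with fat nearby in all. In fat bins inside the thymus area the 8 genes were at 0.997-fold and 1.21-fold the WT level, levels that the definition sets in part. Within 50 µm of fat they were 2.35-fold (1.89 to 2.96) in KO1134 and 1.81-fold (1.44 to 2.29) in KO1308, and at 50 to 100 µm 6.46-fold and 4.91-fold. From 100 to 200 µm they were 4.57-fold and 9.01-fold, from 200 to 400 µm 6.96-fold and 21.8-fold, and from 400 to 800 µm 7.45-fold and 16.9-fold. The ratio to WT was smaller within 50 µm of fat than in any zone farther out, but did not rise steadily with distance. From 100 µm on WT had 12 to 97 UMIs a zone. WT zones near fat rest on 7 fat bins in 4 patches, 2 of them single bins, whereas KO zones lie along patches of up to 280 bins. The amount of fat around bins at matched distance was not measured. *Scd1* was 11.4-fold and 8.55-fold within 50 µm, and *Fabp4* 5.63-fold and 3.83-fold there, falling to 1.61-fold and 1.96-fold beyond 800 µm.

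The mix of the 8 genes in far thymus was set beside that of fat in the same section. *Cfd*, *Car3*, *Retn* and *Adipoq* define fat bins, so the definition sets the shares of all 8 genes there in part. In KO1134 *Cfd* made up 50.2% of their UMIs in fat bins and 45.3% beyond 400 µm, *Car3* 25.3% and 23.9%, *Retn* 8.41% and 10.3%, and *Adipoq* 6.62% and 5.98%. In KO1308 *Cfd* made up 59.3% and 62.5%, *Car3* 21.0% and 18.9%, *Retn* 7.19% and 5.61%, and *Adipoq* 5.63% and 5.75%. In both KO sections *Cfd* and *Car3* took the largest shares in fat and far from it, and the sections differed alike in both places, with less *Cfd* and more *Cyp2e1* in KO1134 (3.81% in fat and 7.26% far) than in KO1308 (1.34% and 0.684%). In WT the mix differed, from 123 and 120 UMIs. Without *Cfd* in the definition WT had 0 fat bins, so the WT shares in fat bins follow from the rule and the change is a description. *Cfd* took 66.7% in fat bins and 34.2% beyond 400 µm, *Plin1* 3.25% and 13.3%, and *Cyp2e1* 1.63% and 10.8%. The mix was not fixed in KO1134 either. Beyond 800 µm *Retn* made up 14.9% (10.4 to 20.5) and *Cyp2e1* 10.6% (6.75 to 15.6) there, above their shares in fat bins, and *Cfd* 42.3% (35.5 to 49.3), below its share.

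**Figure D4:**
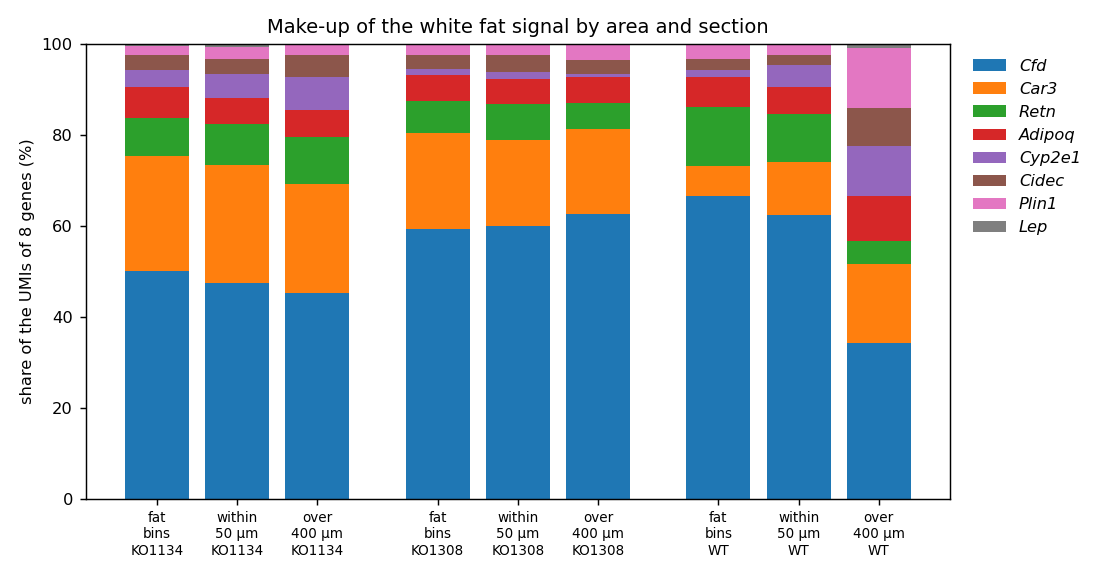
Share (%) of each of 8 genes among their summed UMIs in fat bins, thymus bins within 50 µm of fat and thymus bins over 400 µm from fat, 1 bar per area and section. *Cfd* keeps the largest share in every bar, from 45.3% to 62.5% in the KO sections, and falls to 34.2% in WT thymus over 400 µm from fat, a bar of 120 UMIs.

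*Fabp4* and *Scd1* were set beside these 8 genes. For each 100 UMIs of the 8 genes there were 53.6, 64.4 and 19.5 of *Fabp4* in fat bins of KO1134, KO1308 and WT, 67.6, 59.9 and 28.2 within 50 µm, and 569, 236 and 2618 beyond 400 µm. *Fabp4* made up 78.0%, 52.2% and 90.4% of all UMIs of the 10 genes beyond 800 µm. *Scd1* had 62.6, 64.9 and 9.76 in fat bins, 103, 100 and 21.2 within 50 µm, and 141, 131 and 179 beyond 400 µm. Both were more abundant, beside the 8 genes, beyond 400 µm than in fat bins. Fat bins were chosen for a high share of 4 of the 8 genes. The rule itself can therefore lower these values in fat bins and raise them just outside. Within 50 µm *Scd1* was above its value in fat bins in both KO sections. In WT its intervals overlapped (4.91 to 17.7 in fat bins, 12.0 to 35.5 within 50 µm). *Fabp4* was not above its value in fat bins within 50 µm in KO1308 (59.9, 52.7 to 68.0). Over blocks of 8 × 8 bins, taking thymus bins beyond 400 µm only, *Fabp4* had a correlation of 0.557, 0.228 and 0.305 with a capillary endothelium list (146, 234 and 475 blocks of 1 section each, which share library and depth). With the adipocyte list its correlation was 0.322, 0.278 and 0.0636, with the macrophage list 0.395, 0.000344 and 0.0701, and with the 8 genes 0.178, 0.235 and −0.00513. Endothelium thus had the highest of these 4 values in KO1134 and WT and not in KO1308. The endothelium list of 7 genes, with *Pecam1* and *Cdh5* among them, summed to 146, 197 and 171 CPM beyond 800 µm, 0.857-fold (0.813 to 0.903) and 1.16-fold (1.09 to 1.23) the WT level. The macrophage list of 6 summed to 915, 736 and 423 CPM there, 2.16-fold (2.11 to 2.22) and 1.74-fold (1.68 to 1.80), beside the 1.61-fold and 1.96-fold of *Fabp4*. The part of either cell type in the level of *Fabp4* was not tested.

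Brown fat was set apart by *Ucp1*, the uncoupler that defines it. Tissue bins with at least 0.1% of UMIs on *Ucp1* in the 3 × 3 bins around them and which are not fat bins numbered 223, 415 and 0. *Retn* had the largest ratio between the kinds, at 19.8-fold (14.7 to 27.3) in KO1134 and 17.4-fold (13.9 to 22.1) in KO1308 in fat bins without *Ucp1* over these bins. *Cyp2e1* was 16.1-fold (10.8 to 25.2) and 5.47-fold (3.73 to 8.09), and *Cfd* 6.85-fold and 4.78-fold. *Adipoq* was 1.94-fold (1.71 to 2.21) and 1.40-fold (1.20 to 1.62), *Scd1* 1.56-fold and 1.27-fold, and *Fabp4* 0.949-fold (0.915 to 0.984) and 0.770-fold (0.736 to 0.806), so these lipid genes were shared by both kinds. *Cfd*, *Car3*, *Retn* and *Adipoq* helped to choose the bins, so their ratios are a description. Patches also differed. In KO1308 a patch of 75 bins had 605 CPM of *Retn* and 2206 CPM of *Ucp1*, whereas the patches of 110, 40 and 38 bins had 1900, 2520 and 2966 CPM of *Retn* and 933, 27.4 and 0 CPM of *Ucp1*. The patch of 110 bins therefore had much of both genes. In KO1134 patches of 280, 136 and 34 bins had 2150, 1024 and 2028 CPM of *Retn*, and 9489, 9482 and 9349 CPM of *Cfd*, with 31.0, 178 and 0 CPM of *Ucp1*.

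Other adipocyte genes were followed through lists chosen with these data known. Of the list for adipocyte lipid and identity, 19 of 20 genes tested in KO1134 and 16 of 17 in KO1308 were at least 2-fold higher within 50 µm of fat than beyond 400 µm, with medians of 9.73 and 6.96. Over all genes tested the shares were 5.75% and 4.76%. *Thrsp*, a regulator of fatty acid synthesis, was 174-fold (138 to 220) and 35.0-fold (27.2 to 44.8) higher near fat, and *Bscl2* (seipin), which helps droplets to form, was lowest at 1.84-fold and 1.66-fold. Beside WT, 15.2% and 19.4% of all genes were at least 2-fold higher in thymus bins, and 7.60% and 3.71% lower. Of this list 9 and 12 of 23 genes were higher and 0 lower. *Adig* (adipogenin) led with 35.9-fold (14.9 to 113) and 47.5-fold (19.6 to 150) from 117, 85 and 5 UMIs. *Acly*, which makes acetyl-CoA for lipid synthesis and is used by many cells, was at 0.824-fold in KO1134. The list thus ranged from the WT level to far above it within a section. Beyond 400 µm, 6 and 9 of 22 were at least 2-fold higher, *Thrsp* by 2.94-fold (2.15 to 4.05) and 9.82-fold (7.40 to 13.2). Over all genes the shares there were 15.3% and 20.1%.

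Of the brown fat list, 3 and 4 of 5 tested genes were at least 2-fold higher than WT in thymus bins, *Ucp1* with 33, 83 and 1 UMIs, and *Cidea*, a droplet protein of brown fat and a paralogue of *Cidec*, with 68, 63 and 3 UMIs. For all lists here, the shares over all genes were 15.2% and 19.4% higher than WT, and 5.75% and 4.76% higher near fat. The fat progenitor and fibroblast list had 7 and 6 of 10 higher than WT. *Dlk1*, a preadipocyte gene, led it with 17.3-fold and 30.4-fold, yet was not higher near fat (1.04-fold in KO1134 and 0 UMIs within 50 µm in KO1308). *Pi16*, a gene of fat progenitors, was 13.1-fold and 5.53-fold higher near fat. Endothelium had 2 and 3 of 7 higher than WT, and 5 of 7 and 2 of 4 higher near fat, led by *Gpihbp1*, which holds lipoprotein lipase on capillaries, at 7.82-fold in KO1134. Macrophage genes had 1 and 1 of 6 higher than WT, and 0 higher near fat and 2 lower in each KO section, where 8.74% and 5.50% of all genes were lower. Beyond 400 µm 3 and 1 of the 6 were higher than WT, against 15.3% and 20.1% of all genes. B cell genes had 3 and 2 of 3 and muscle genes 3 and 4 of 5 higher than WT. The thymus list had 4 of 6 lower than WT in KO1134 and 0 of 6 in KO1308, against 7.60% and 3.71% of all genes. Liver genes, which would mark another source of *Cyp2e1*, had too few UMIs to be tested. The part of these cells in the members' levels was not tested. Paralogues of the set were at least 2-fold higher than WT for 2 and 2 of 8. *Retnla*, a paralogue of *Retn*, was 5.09-fold (4.59 to 5.65) in KO1134 and 1.06-fold (0.891 to 1.26) in KO1308, and *Scd2*, close to *Scd1*, was at 1.03-fold and 1.16-fold.

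The genes most like the summed set over blocks of 8 × 8 tissue bins (221 blocks in KO1134 and 331 in KO1308, ranked by the lower r of 13225 genes) were *Thrsp* (r 0.936 and 0.814), *Pck1* (0.907 and 0.810), *Gpd1* (0.884 and 0.775), *Adig* (0.922 and 0.755) and *Adrb3* (0.883 and 0.750). *Pck1* makes phosphoenolpyruvate and *Gpd1* glycerol 3-phosphate, and *Adrb3* is the β3-adrenergic receptor. *Gm28437*, *Gm28661*, *Mrap*, *Pcx* and *mt-Co1* followed with a lower r of 0.749 to 0.738. *Gm28437* and *Gm28661* are similar in sequence to mitochondrial genes, so their reads may be shared with those. The blocks of 1 section share library and depth, and the correlations are a description.

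Bins outside the tissue also held fat transcripts. In KO1308 12542 bins outside the tissue and over 400 µm from fat had 66.8 UMIs of the 8 genes for each 100 bins (65.4 to 68.3), which is 8.96 times (8.30 to 9.67) the count per thymus bin at that distance. The 6 thymus genes had 0.186 times the count per bin there. Such bins in WT had 4.796 per 100 (4.16 to 5.50), 9.27 times (7.37 to 11.7) the count of its own far thymus bins. In KO1134 they had 2.53 (0.690 to 6.48, 4 UMIs in 158 bins), 0.369 times the count of its far thymus bins. Bins outside the tissue held fewer UMIs in all than thymus bins, so the unit matters. By CPM the ratio to far thymus was 3.65 (0.991 to 9.42) in KO1134, 38.3 (35.5 to 41.3) in KO1308 and 64.6 (51.3 to 81.6) in WT. Over 100 µm from tissue the count per bin was 11.8 times that of far thymus in KO1308 and 30.9 times in WT. The count per bin outside the tissue was thus highest in KO1308, but an excess over far thymus was present in WT as well. Part of these bins lie in low-gene areas between and beside the lobes. Distance was taken from fat bins on tissue only, so bins outside it that are rich in fat genes may be among them. Of bins under the limits with at least 50 UMIs, 697 of 13368 (5.21%, 4.84 to 5.60) in KO1308 had at least 1% on the fat genes, 48 of 360 (13.3%, 9.997 to 17.3) in KO1134 and 4 of 4158 (0.0962%, 0.0262 to 0.246) in WT. The part of fat transcripts spread outside cells in the level of thymus bins was not tested.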

How the data were processed

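Spatial transcriptomes of 3 thymus sections (2 KO, 1 WT) were used. Reads had been processed by the authors with BSTMatrix and aligned to GRCm38 by STAR. The deposited values are UMI counts of each gene in each spot, not normalised, beside spot positions. Spots lie 4.8 µm apart and were summed here in 27 µm bins. Bins with at least 300 genes and at most 30% mitochondrial UMIs, in connected groups of at least 200 bins, were kept as tissue. Folds, which the authors removed, were kept. The thymus area comprised bins whose 7 × 7 surroundings reached 50% or more of the share that the whole section had of *Themis*, *Arpp21*, *Ptcra*, *Cd8b1*, *Prss16* and *Psmb11*. CPM and ratios came from summed UMIs, with exact Poisson, conditional binomial and binomial intervals at 95%. Where WT had 0 UMIs, 3 were used for calls. Gene counts of 2-fold or more rest on genes with at least 100 UMIs in the areas compared. With 1 WT section no test was made.

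The genes of the set, the gene lists and the rule for named genes (the set, the largest and smallest ratio of each list, paralogues, and the 10 genes most like the summed set on log2(CPM + 10)) were chosen with earlier results of these data known. Alternatives covered bin width, gene and fat limits, fat genes, thymus limit, denominator and T bins. Taking *Ucp1*-rich bins as fat sources was added after seeing the data. Computations were tested on simulated data. Python 3.11.15, numpy 2.4.6, scipy 1.17.1, pandas 2.3.3 and matplotlib 3.10.9 were used.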

Additional observations from a re-analysis of the deposited data

Results flagged for a closer look

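Fat transcripts appeared in bins outside the tissue or under the gene limit, which hold no part of the levels compared between KO and WT thymus. In the section labelled KO1308, bins outside the tissue and over 400 µm from fat had 66.8 UMIs of the 8 genes other than *Fabp4* and *Scd1* for each 100 bins, against 4.796 in WT, which is 8.96 and 9.27 times the count per far thymus bin of the same section. Among bins under the gene or mitochondrial limit with at least 50 UMIs, 13.3% in KO1134 and 5.21% in KO1308 had at least 1% of UMIs on *Adipoq*, *Cfd*, *Car3* and *Retn*, against 0.0962% in WT. Of the 697 such bins in KO1308, 162 passed with only 1 UMI of these genes. Distance was taken from fat bins on tissue only, so such bins may be among those over 400 µm from fat.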

How the results depend on the processing

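Leaving out *Lep*, the ratio of a single gene in a single KO section was above 1 in 270 of 270 values under the alternatives for KO over WT in thymus bins (1.46 to 44.4), in 301 of 306 beyond 400 µm (0.725 to 54.2) and in 306 of 306 for near over far (6.32 to 466). The 5 others were *Cyp2e1* in KO1308, at 0.725 in T bins, 0.737 at a fat limit of 0.5%, 0.911 with low-gene bins and 0.897 with *Ucp1*-rich bins as sources, and *Plin1* in KO1134, at 0.994 at 0.5%. The means of the KO sections that moved beyond the standard deviation of the 2 KO values came mostly from the definition of fat. Fat bins, at 3.69%, became 6.92% at a limit of 0.5%, 0.995% at 2%, and 0.721% without *Cfd*, when WT had 0 fat bins and gave no distance. The 10 genes in thymus bins, at 5.04-fold, became 6.98-fold at 2% and 7.42-fold without *Cfd*. Near over far for the 10 genes, at 53.6, became 92.9 at 2% and 115 without *Cfd*, and for the 8 genes, at 142, 266 without *Cfd*. The number of genes at least 2-fold higher beyond 400 µm in both KO sections, 3, became 5 in 50 µm bins, 6 at 2%, 5 without *Cfd* and 5 without *Car3*. With at least 500 UMIs a gene, 6 of 7 (KO1134) and 4 of 4 (KO1308) adipocyte list genes were higher near fat. Shares over all genes were computed only under the main settings (10.4% for both KO sections beyond 400 µm). The genes that reach 100 UMIs can also change with the setting, so nothing is read from these counts. *Fabp4* and *Scd1* made up 55.1% of the set in fat bins, and 48.7% at 2%. Over 100 µm from any tissue, the 8 genes outside had 88.4 UMIs per 100 bins in KO1308 and 16.0 in WT. The cause of these moves was not tested.

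Leaving out either KO section gives the other's value, 2.62% to 4.75% for fat bins, 4.28-fold to 5.80-fold for the 10 genes in thymus bins and 2.04-fold to 3.55-fold beyond 400 µm, 16.6-fold to 26.5-fold and 7.29-fold to 22.0-fold for the 8 genes, and 32.0 to 75.1 and 57.5 to 226 for near over far. Leaving out the means of single-gene ratios, 147 values were labelled unchanged and 17 moved. Among the means of single-gene ratios 457 were unchanged and 38 moved. Means had to lie within the standard deviation of the 2 KO values, which the values with 1 section left out always do. Gene numbers had a limit of fold change, and bins outside the tissue the counting interval. No paired analysis was possible because there is 1 WT section and no test. Few UMIs limit *Lep* in all areas, and *Retn*, *Plin1*, *Cyp2e1* and *Cidec* far from fat.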
